A study of Macaca mulatta with 4 samples.

Results

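The genes described here are 37 autism risk genes, most of which encode proteins that read, write or reposition chromatin, measured by single-nucleus RNA sequencing in the cerebellum of fetal rhesus macaques. The members were taken from a list of symbols that was drawn up with earlier results of these data known. Of the 37 symbols, 35 had a row among the 30807 gene rows, while KMT2A and BCL11A had none. TBR1 was covered by 17 UMIs (unique molecular identifiers, one per captured RNA molecule) and SETBP1 by 2 UMIs over all nuclei, so 33 members had enough counts for a test in the granule lineage. KATNAL2 passed that filter with 704 UMIs in all.

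Genes of this list were tied to autism because damaging variants in them recur in affected children. CHD8, CHD7 and CHD2 are ATP-driven remodellers that slide nucleosomes, and the KMT2, NSD and EHMT proteins place methyl groups on histone tails. TCF4, FOXP1 and MYT1L bind DNA and steer neuronal differentiation. The cerebellum is a natural place to look at them, since its granule neurons are born late in gestation from dividing precursors of the external granular layer, leave the cell cycle, migrate inward past the Purkinje cells and then mature. CHD7 and CHD8 are both needed in granule precursors for normal cerebellar growth in mice.

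The study asked how inflammation of the fetal membranes alters the developing cerebellum. The LPS group was 2 fetuses exposed to 1 mg of bacterial lipopolysaccharide (LPS, which models chorioamnionitis) injected into the amniotic fluid, a male at 133 days of gestation and a female at 131 days. The Control group was 2 fetuses with no intervention, a female and a male, both at 130 days. Nuclei came from flash-frozen cerebellar hemispheres, and each fetus gave 1 library, so each group had n = 2 and each combination of exposure and sex had a single library. The controls received no saline injection, so injection and LPS cannot be told apart, nor can LPS and the 1 to 3 days of added age.

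The libraries held 6890 to 9250 nuclei that passed limits of 500 genes and 5% mitochondrial UMIs. They split by sex in quality: median UMIs per nucleus were 4508 and 4063 in the Control and LPS females against 1882 and 2308.5 in the males, and the mean mitochondrial share was 0.263% and 0.211% against 0.0212% and 0.0315%. Nuclei formed 22 clusters, and the members were kept out of the genes used for clustering. The granule lineage held 22358 nuclei. Nuclei of clusters that stayed unnamed were 26.9% of the LPS male library and 3.65% to 5.78% of the others. The estimated share of free RNA in the granule lineage was 8.37% and 6.86% in the Control and LPS females and 12.4% and 19.2% in the Control and LPS males. Between 16 and 21 barcodes were shared by any 2 libraries. Levels are given in CPM, the UMIs of a gene per 1000000 UMIs summed over all nuclei of a class in 1 library, and are compared only within a gene, since longer genes give more intronic UMIs. All 8 Purkinje markers were detected in the Purkinje class, with a summed level of 17268 to 21337 CPM against 139 to 183 CPM in the granule lineage, and the 8 endothelial markers summed to 9085 to 11749 CPM in their class against 20.2 to 30.8 CPM. The 8 granule lineage markers separated their class less well. They summed to 7272 to 9041 CPM in the granule lineage and to 6032 to 11329 CPM in inhibitory interneurons, above the granule lineage in both female libraries, whereas the 7 interneuron markers with a row summed to 3346 to 3706 CPM in interneurons and 29.6 to 74.4 CPM in the granule lineage. Granule clusters were named from the stage markers. The proliferating cluster (1606 nuclei) raised 1 of the 8 granule lineage markers (log2 fold over 0.5 against the other nuclei compared) and 8 of 8 stage markers, and the committing cluster (3040 nuclei) raised 6 of 6 stage markers, while its best class list was choroid or ependymal with 1 of 7 markers raised. Among the maturing clusters, the one of 4678 nuclei raised 6 of 6 stage markers, and those of 4335 and 2291 nuclei raised only 3 of 6. The class of microglia or macrophages, called microglia for short, raised 8 of its 8 markers with a row. Its leading genes included the macrophage genes F13A1 and MRC1, so it was not microglia alone. All comparisons of classes and stages below are descriptions without a test, since the same nuclei defined the groups.

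Among the remodellers, CHD7 was the one with its highest level in granule cells. CHD7 measured 1283 and 1502 CPM in the granule lineage of the Control female and male and 1262 and 1412 CPM in the LPS female and male. It was highest in the granule lineage in 4 of 4 libraries and lowest in Purkinje cells, at 99.1, 118, 89.7 and 293 CPM in the same order, a mean fold of 10.2 between the classes. The Purkinje values rest on 184 UMIs. Along the granule stages CHD7 was nearly level, with means of 1121 CPM in proliferating precursors, 1459 CPM in maturing cells and 1200 CPM in mature cells.

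The other remodellers were spread more evenly. ARID1B, a DNA-binding subunit of the BAF complex, had a mean of 1100 CPM ± 85.3 (SD, n = 4) in the granule lineage and was 1.19-fold higher in Purkinje cells. CHD2 (255 CPM ± 58.3) was 1.5-fold higher in astroglia, and ADNP (273 CPM ± 32.1) was lowest in unipolar brush cells at 176.5 CPM. CHD8 (120 CPM ± 39.9 over the 4 libraries) had means over the libraries between 101 and 170 CPM in all 9 classes. Single libraries fell outside that range. ADNP, ARID1B and CHD2 were higher in proliferating precursors than in mature granule cells in 4 of 4 libraries, by mean log2 ratios of 0.59, 0.55 and 0.35. CHD8 was higher in 2 libraries and lower in 2, with a mean log2 ratio of 0.00.

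The histone methyltransferases and their partners were broadly expressed. Granule lineage means were 650 CPM for KMT2C, which methylates histone H3 at enhancers, 703 CPM for ASH1L, 586 CPM for NSD1, 475 CPM for EHMT1, 229 CPM for KMT5B, 212 CPM for ASXL3 and 172 CPM for SETD5. NSD1 was highest in the granule lineage on average, but in only 1 of 4 libraries. ASH1L and KMT2C were highest in microglia, SETD5, KMT5B and EHMT1 in fibroblast or mural cells and ASXL3 in unipolar brush cells. These excesses over the granule lineage were small, between 1.08-fold for KMT5B and 1.5-fold for SETD5, and only SETD5 had the same highest class in 4 of 4 libraries. ASXL3, a partner of a histone deubiquitinase, was the member of this group that differed most between cell types. It measured 53.4 CPM on average in endothelial cells and 69.3 CPM in microglia against 268.5 CPM in unipolar brush cells. Along the granule stages EHMT1, which dimethylates histone H3 lysine 9, had a mean of 630.2 CPM in proliferating precursors and 364 CPM in mature cells. EHMT1, NSD1, SETD5, ASH1L and KMT2C were all higher in precursors in 4 of 4 libraries, with mean log2 ratios from 0.31 for KMT2C to 0.82 for EHMT1. KMT5B and ASXL3 differed in sign between libraries.

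The transcription factors separated the cell classes more sharply. TCF4, a basic helix-loop-helix factor, measured 1845, 1638, 1968 and 1322 CPM in the granule lineage of the Control female, Control male, LPS female and LPS male, and only 63.4, 133, 61.3 and 244 CPM in Purkinje cells, a mean fold of 15.6. The Purkinje value of TCF4 was below the granule value in every library, and the highest of the Purkinje values stood in the LPS male, where that class held 15 nuclei. Inhibitory interneurons had the highest mean of TCF4, 2392 CPM. FOXP1, a forkhead repressor, was highest in endothelial cells in 4 of 4 libraries, at 2138, 2188, 2305 and 1747 CPM against 492, 439, 450.1 and 408 CPM in the granule lineage, a mean fold of 4.66. MYT1L, a zinc finger factor that represses non-neuronal genes, was highest in inhibitory interneurons in 4 of 4 libraries, at 453, 644, 340.0 and 869 CPM, 2.45-fold above the granule lineage. The means of MYT1L over the libraries were 43.9 to 71.8 CPM in the 5 glial, vascular and immune classes and 155 to 576 CPM in the 4 neuronal classes. Across libraries the single values overlapped, with 180.3 CPM in microglia of the LPS male against 85.5 CPM in unipolar brush cells of the Control male, while within each library the neuronal classes were above the rest. The microglia of the LPS male also held more granule lineage marker UMIs, 4765 CPM against 1095 to 2150 CPM in the other libraries. Their part in the MYT1L value was not tested. ZNF462 (401 CPM in the granule lineage) was highest in the oligodendrocyte lineage at 527 CPM and lowest in endothelial cells at 118 CPM, and POGZ (362 CPM) was highest in astroglia at 428 CPM. TBR1, a marker of cerebellar nuclear neurons and of the cortex, was at or under 0.192 CPM in the granule lineage of each library, 12 UMIs in all.

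Within the granule lineage, TCF4 and MYT1L both peaked in migrating cells. TCF4 had means of 2209 CPM in proliferating precursors and 3074 CPM ± 480 (SD, n = 4) in migrating cells, against 1227 CPM in maturing and 906 CPM in mature cells. MYT1L measured 487, 566, 344 and 682 CPM in migrating cells of the Control female, Control male, LPS female and LPS male, against 73.3, 105, 51.5 and 133 CPM in committing cells of the same libraries. The migrating value of MYT1L was the highest of the 5 stages in each library. FOXP1 and POGZ were higher in proliferating precursors than in mature cells in 4 of 4 libraries, with mean log2 ratios of 0.77 and 0.65.

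**Figure D1:**
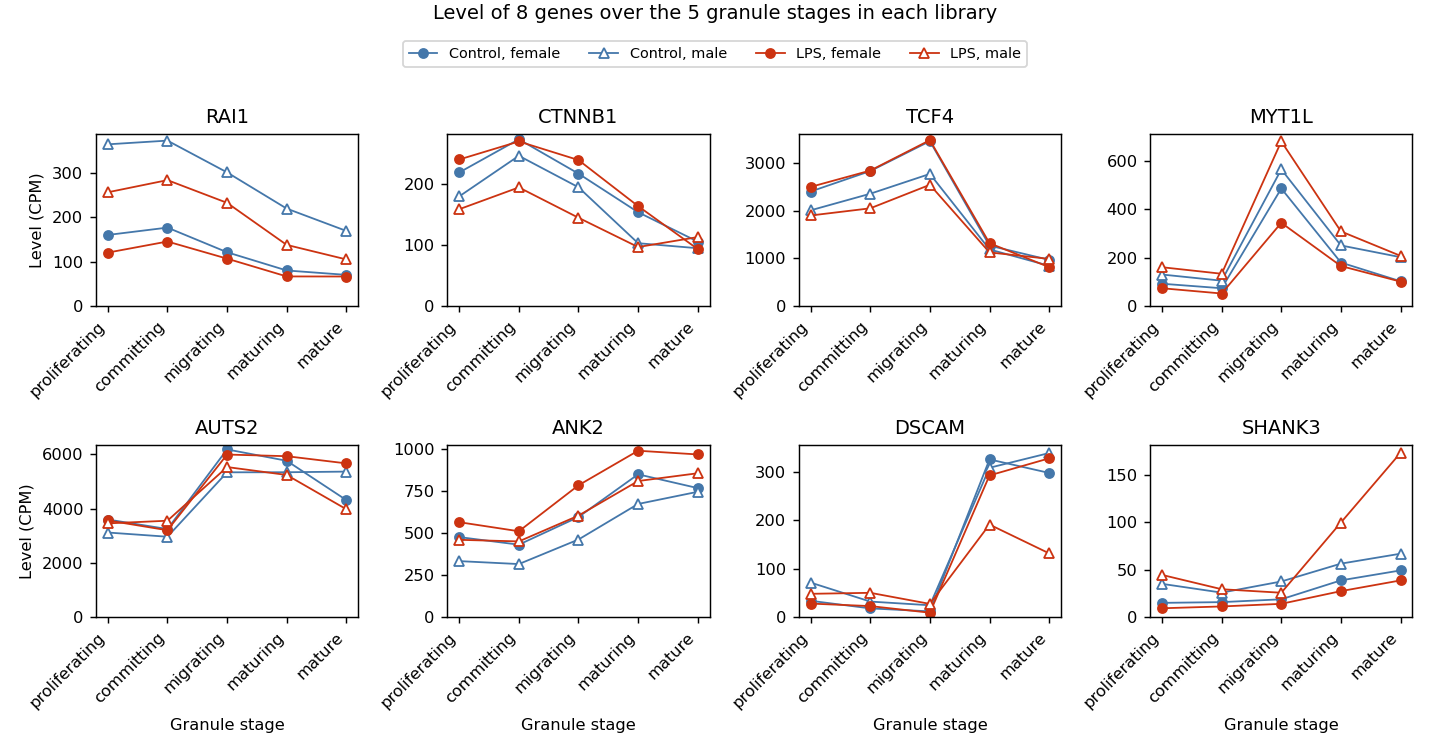
Level in CPM (vertical axis, from 0) of 8 genes over the 5 stages of the granule lineage (horizontal axis), 1 line for each library, blue for Control and red for LPS, filled circles for female and open triangles for male fetuses. RAI1 and CTNNB1 are lower in mature cells than in precursors in each library, TCF4 and MYT1L peak in migrating cells, and DSCAM and SHANK3 are near their lowest in migrating or committing cells and high in maturing and mature cells, with the SHANK3 value of the LPS male at 173 CPM in mature cells against 38.7 to 66.7 CPM in the other libraries.

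Of the cofactors and other nuclear proteins, AUTS2, which binds a variant Polycomb complex, was highest in Purkinje cells in 4 of 4 libraries. AUTS2 measured 17101, 7794, 12747 and 8502 CPM in Purkinje cells of the Control female, Control male, LPS female and LPS male against 5227, 4781, 5287 and 4586 CPM in the granule lineage. The Purkinje level was higher in each library, by 2.21-fold on average. TCF20 (127 CPM ± 5.50 in the granule lineage) was 1.64-fold higher in Purkinje cells, with the highest class shared by 3 of 4 libraries. MED13L, a subunit of the Mediator kinase module, was highest in microglia in 4 of 4 libraries, at 1894, 1070.2, 1896 and 1033 CPM, 1.76-fold above the granule lineage. CTNNB1, the beta-catenin of Wnt signalling and cell junctions, was highest in endothelial cells in 4 of 4 libraries, at 348, 266, 352 and 276 CPM, 1.98-fold above the granule lineage. RAI1 (153 CPM in the granule lineage) was 1.53-fold higher in endothelial cells, and WAC (309.8 CPM) 1.39-fold higher in microglia. TBL1XR1 (183 CPM), a subunit of the NCoR repressor, and PHF3 (181 CPM) differed little among the granule lineages of the 4 libraries, with SDs of 7.15 and 6.80 CPM. TBL1XR1 was 3.01-fold lower in Purkinje cells than in the granule lineage.

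Along the stages, RAI1 and CTNNB1 had the largest excess in precursors among the cofactors. RAI1 stood at 160.5, 365, 121 and 257 CPM in proliferating precursors and 70.2, 170, 66.5 and 105 CPM in mature cells of the Control female, Control male, LPS female and LPS male. The precursor value of RAI1 was higher within each library, by a mean log2 ratio of 1.10 ± 0.18 (SD, n = 4). CTNNB1 followed with a mean log2 ratio of 0.95 ± 0.36, and TCF20 with 0.78 ± 0.35. AUTS2 and MED13L went the other way in 4 of 4 libraries, with mean log2 ratios of -0.48 and -0.41.

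The kinase DYRK1A (264 CPM ± 13.2 in the granule lineage) was highest in endothelial cells in 4 of 4 libraries, 1.32-fold above the granule lineage. The ubiquitin ligase TRIP12 (157 CPM) was 1.65-fold higher in microglia on average, but microglia were its highest class in only 1 of 4 libraries, and means of 253 to 267 CPM were reached in oligodendrocyte, endothelial and microglial nuclei alike. NAA15 (129 CPM), a subunit of the N-terminal acetyltransferase, was lowest in Purkinje cells and otherwise differed little between classes, from 106 CPM in the oligodendrocyte lineage to 140.1 CPM in microglia. KATNAL2, a katanin-like microtubule protein, measured 7.23, 4.12, 5.61 and 3.73 CPM in the granule lineage and 9.7 CPM on average in astroglia. DYRK1A and NAA15 were higher in proliferating precursors than in mature cells in 4 of 4 libraries, by mean log2 ratios of 0.61 and 0.62. The stage ratio of KATNAL2 rested on 63 UMIs in precursors and 35 in mature cells and differed in sign between libraries.

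The 4 members of the synapse, axon and adhesion group showed wide contrasts between classes and between stages. SHANK2, a scaffold of the postsynaptic density, measured 3506, 10185, 2492 and 9764 CPM in Purkinje cells of the Control female, Control male, LPS female and LPS male. In the granule lineage it stood at 269.95, 875, 269 and 535 CPM. The fold was 12.6 on average, SHANK2 was highest in Purkinje cells in 4 of 4 libraries, and both male libraries were above both female libraries in either class. SHANK3, a paralogous scaffold, had its highest level in endothelial cells in 4 of 4 libraries, at 216, 373, 136 and 434 CPM, 5.87-fold above the granule lineage. This rests on 277 UMIs in 212 endothelial nuclei. In Purkinje cells SHANK3 averaged 32.0 CPM, so the paralogues had their highest levels in different classes.

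ANK2, an ankyrin that anchors membrane proteins to the cytoskeleton, was highest in Purkinje cells in 4 of 4 libraries (1345, 852, 1459 and 1173 CPM, 1.66-fold above the granule lineage) and lowest in endothelial cells at a mean of 117 CPM. DSCAM, an adhesion molecule of neurite self-avoidance, was highest in the oligodendrocyte lineage at 409, 318, 313 and 532 CPM, 2.08-fold above the granule lineage. Purkinje cells were close to it at 341, 425, 403 and 244 CPM, and the 2 classes overlapped, so their order was not resolved. All 4 genes of the group were higher in mature granule cells than in proliferating precursors in 4 of 4 libraries. The mean log2 ratios of precursors to mature cells were -2.57 ± 0.92 for DSCAM, -1.61 ± 0.48 for SHANK3, -0.88 ± 0.20 for ANK2 and -0.55 ± 0.15 for SHANK2 (SD, n = 4). Between adjacent stages DSCAM stood at a mean of 18.4 CPM in migrating cells and 279.8 CPM in maturing cells.

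**Figure D2:**
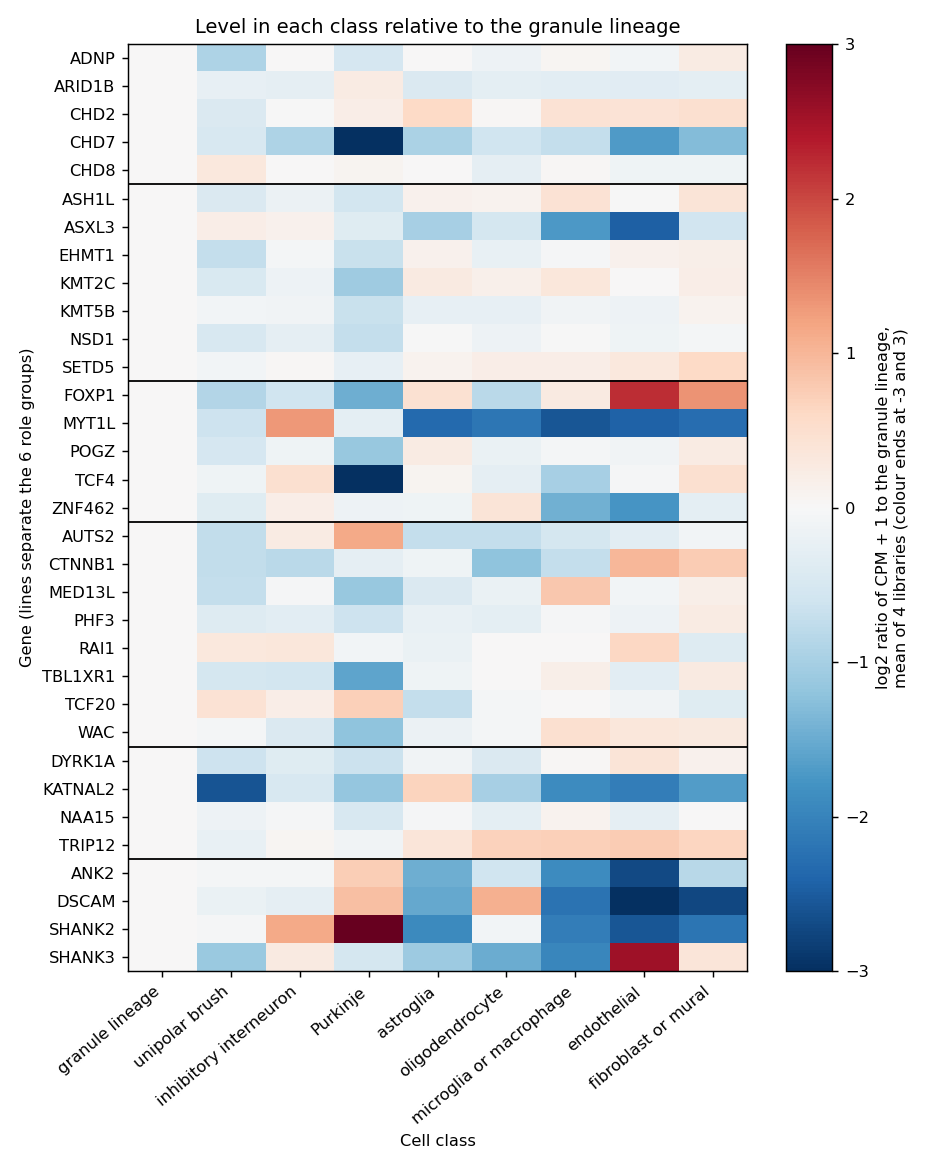
Each cell is the log2 ratio of a gene's level (CPM + 1) in a class to its level in the granule lineage, averaged over the 4 libraries (red higher, blue lower, colour ends at -3 and 3), for 33 genes in rows grouped by role and 9 classes in columns. SHANK2 in Purkinje cells and FOXP1 and SHANK3 in endothelial cells are the reddest cells, and CHD7 and TCF4 in Purkinje cells are among the bluest.

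Across the 33 genes, 31 had their highest mean level outside the granule lineage, a share like that of all genes tested in any class, of which 94.2% did. The highest class was the same in 4 of 4 libraries for 11 members, against 20.4% of all genes, which were not matched for level. Levels in Purkinje cells were lower than in the granule lineage in 4 of 4 libraries for 15 of the 32 members with at least 50 CPM in the granule lineage, against 49.6% of the 3953 genes at that level, and higher for 6 members against 15.7%. Both shares were close to those of all genes. The class order of the smallest groups rests on few nuclei, with 15 to 54 Purkinje nuclei and 8 to 37 unipolar brush nuclei per library. Free RNA was estimated at 0% to 4.43% of the Purkinje UMIs and at 0% to 12.5% of the endothelial UMIs, and the count of 31 was 31 after it was subtracted.

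By stage, 18 of the 33 members were higher in proliferating precursors than in mature granule cells in 4 of 4 libraries, against 36.6% of the 14901 genes tested, and 8 were lower in 4 of 4, against 17.5%. The median log2 ratio was 0.38 over the members and 0.20 over all genes. These shares of all genes were not matched for level. At least 50 CPM in the granule lineage was reached by 32 members and by 3953 genes in all. Whether the members differ from genes of like level was not tested. The 18 were mostly chromatin and transcription genes, with 5 of 7 methyltransferases and partners, 5 of 8 cofactors, 3 of 5 remodellers, 3 of 5 transcription factors and 2 of 4 enzymes. The 8 that were lower in precursors were all 4 synapse, axon and adhesion genes, AUTS2, MED13L, MYT1L and ZNF462. The ratio leaves out the stages in between. The highest stage was migrating cells for 8 members, among them TCF4, MYT1L, AUTS2 and ARID1B, against 16.1% of all genes, and committing cells for 10, among them NSD1 and ADNP, against 35.1%.

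**Figure D3:**
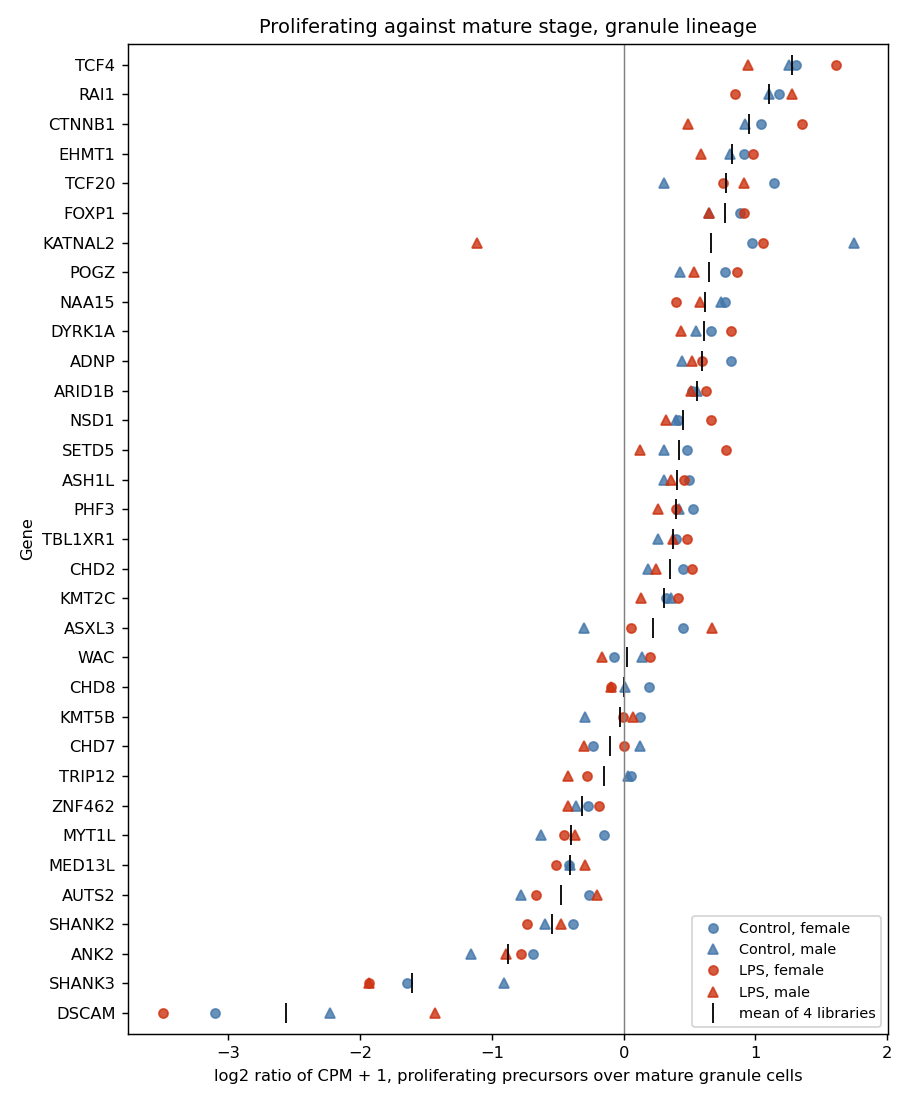
Log2 ratio of the level (CPM + 1) in proliferating precursors to that in mature granule cells (horizontal axis) for 33 genes (rows, sorted by the mean), with 1 point per library, blue for Control, red for LPS, circles for female and triangles for male fetuses, and a black tick for the mean. The 4 points of 18 genes lie right of 0 and those of 8 genes lie left of 0, with DSCAM at a mean of -2.57 and TCF4 at 1.28.

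The effect of LPS was tested on counts summed per fetus. In the granule lineage, edgeR's quasi-likelihood test called 0 of 33 members, and 0% of the 14901 genes tested were called. A call required an adjusted p below 0.1 together with a log2 fold change beyond 0.25 in either direction. At an unadjusted p under 0.05, 0 members and 0.181% of genes passed, and DESeq2 also called 0 members and 0 genes. The 8 members with the smallest unadjusted p were DSCAM, RAI1, SHANK3, ANK2, SETD5, SHANK2, TRIP12 and CHD2, and each had an adjusted p of 1.00. With 2 fetuses per group the standard errors of the members' log2 fold changes ran from 0.25 to 0.78, and with sex as a block from 0.14 to 0.522. Each group held 1 female and 1 male, so without the block the spread within a group takes in the difference by sex. With the block, 0 members and 1.79% of genes had an unadjusted p under 0.05 by edgeR.

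DSCAM measured 217 and 207 CPM in the Control female and male and 184 and 137 CPM in the LPS female and male. Both LPS libraries lay below both controls, with a log2 fold change of -0.40 (SE 0.30, adjusted p = 1.00 by edgeR). By stage it ran from -0.44 to 0.55, and in committing cells DSCAM was higher with LPS in both sexes. ANK2 measured 725 and 563 CPM in the controls and 843 and 756 CPM with LPS, a log2 fold change of 0.30 (SE 0.33, adjusted p = 1.00 by edgeR). ANK2 was the only member for which both LPS libraries were above both controls. TBL1XR1 (184 and 193 CPM in Control, 176 and 180.3 CPM with LPS) and DYRK1A (273 and 272 CPM, 266 and 245 CPM) were the others whose groups did not overlap. These 4 of 33 members stood against 12.2% of all genes tested.

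RAI1 differed more by sex than by exposure, at 103 and 264 CPM in the Control female and male and 89.8 and 154 CPM in the LPS female and male, with a log2 fold change for LPS of -0.55 (SE 0.52, adjusted p = 1.00 by edgeR). SHANK2 had a log2 fold change of -0.47 (SE 0.63) with the levels given above, and the LPS female and the Control female were within 1 CPM of each other. SETD5 (142 and 235 CPM in Control, 134 and 175 CPM with LPS), CHD2 (217 and 335 CPM, 207 and 260 CPM) and TRIP12 (146 and 191 CPM, 136 and 156 CPM) had log2 fold changes of -0.26 (SE 0.33), -0.22 (SE 0.31) and -0.19 (SE 0.27). Each of these 5 genes was lower with LPS in both sexes, and the groups overlapped in all 5. Without the Control male, which had the highest level of all 5, the fold changes of RAI1 (0.18), SHANK2 (0.52), SETD5 (0.07) and CHD2 (0.055) were positive. That fit held no term for sex and had a female as its only control. Both male libraries were above both female libraries for all 5 genes, so the change of sign cannot be told apart from the difference by sex.

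SHANK3 had the largest fold change for LPS among the members, and its sign rested on 1 library. SHANK3 measured 31.9 and 48.1 CPM in the Control female and male, 21.9 CPM in the LPS female and 109 CPM in the LPS male, with a log2 fold change of 0.73 (SE 0.78, adjusted p = 1.00 by edgeR) that turned to -0.85 without the LPS male. The fit without the LPS male held no term for sex and had a female as its only LPS library. Both male libraries were above both female libraries for SHANK3, so the change of sign cannot be told apart from the difference by sex. SHANK3 was highest in mature granule cells. The LPS male library also held a larger share of these cells, at 32.2% of its granule nuclei against 6.38% to 7.99% in the others. The 7 mature-stage markers, all detected, summed to 12916 CPM in its granule lineage against 3464 to 6973 CPM, while the 8 endothelial markers, from the class with the highest SHANK3, summed to 20.2 CPM against 21.4 to 30.8 CPM. Within mature cells SHANK3 was still higher in the LPS male, at 173 CPM against 49.2, 66.7 and 38.7 CPM in the Control female, Control male and LPS female. The part of the cell makeup in the difference was otherwise not tested.

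Over the list, log2 fold changes were negative for 28 of 33 members and for 48.6% of all genes, not matched for level, with medians of -0.11 and 0.01. Within the female pair, 20 of 33 members were lower with LPS against 38.5% of all genes, and within the male pair 28 against 56.6%. The members' medians were -0.04 in the female pair and -0.16 in the male pair, against 0.05 and -0.07 over all genes. By role, log2 fold changes were below 0 for 7 of 7 methyltransferases and partners, 5 of 5 remodellers, 4 of 4 enzymes, 6 of 8 cofactors, 4 of 5 transcription factors and 2 of 4 synapse genes, and none passed the test. With a library left out the count over the list was lower, at 21 of 33 members without either control (46.2% of all genes without the Control female and 45% without the Control male), 24 without the LPS male (51.0%) and 23 without the LPS female (52.8%). Without the Control male, 5 of 7 methyltransferases and partners and 2 of 5 remodellers were below 0. These fits with a library left out held no term for sex and left the sexes unbalanced between the groups. Mature cells, in which 18 members were lower than in precursors in 4 of 4 libraries, made up 32.2% of the granule nuclei of the LPS male against 6.38% to 7.99% elsewhere. Within single stages, 20 of 32 members in mature cells to 26 of 32 in migrating cells were below 0, against 48.1% to 49.4% of genes over the 5 stages. The part of the stage makeup in these counts was not tested.

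**Figure D4:**
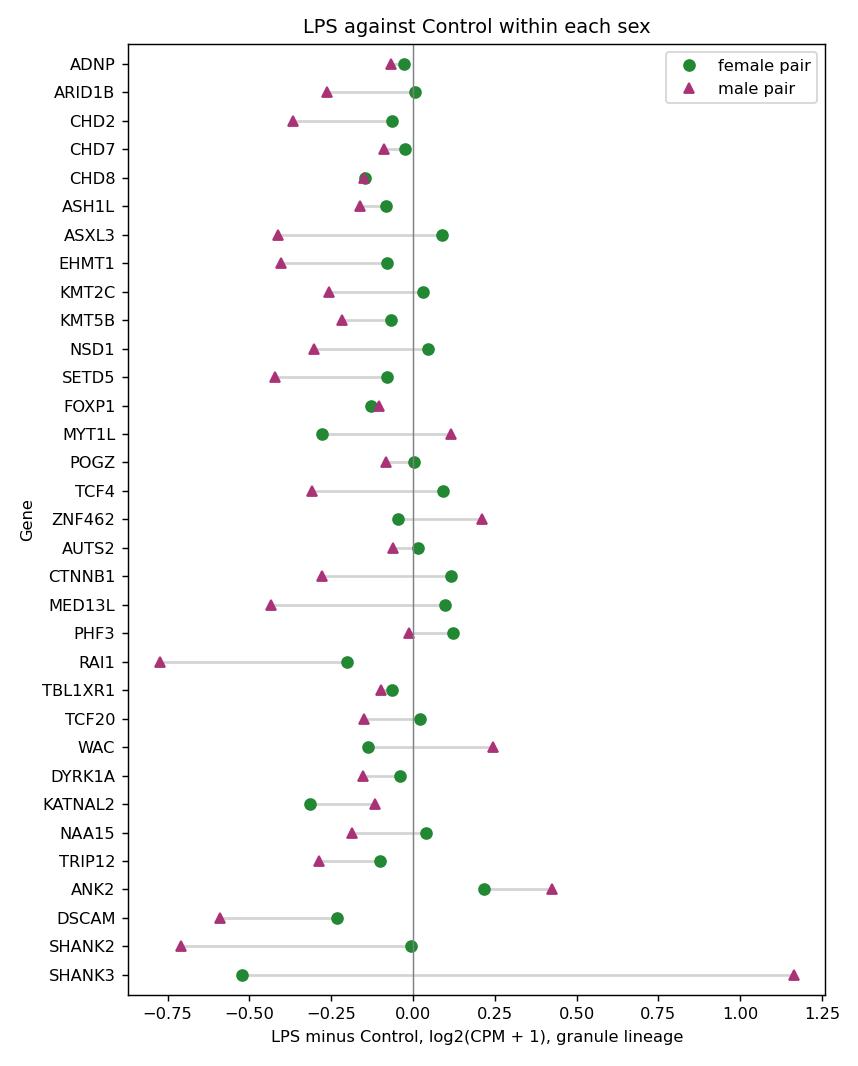
Difference LPS minus Control in log2(CPM + 1) in the granule lineage (horizontal axis) for 33 genes (rows), circles for the pair of female fetuses and triangles for the pair of male fetuses, joined by a grey line. Most triangles lie left of 0, and SHANK3 has the widest gap, with -0.52 in the female pair and 1.16 in the male pair.

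The same test called 0 members, and 0% of genes, in all nuclei, in each of the 6 other classes with at least 20 nuclei in every library and in each of the 5 granule stages. In all nuclei and in these classes and stages, 0 members had an unadjusted p under 0.05 by edgeR. Over all genes that share was 0.229% in all nuclei, 0.311% in astroglia, 0.315% in inhibitory interneurons, 0.61% in endothelial cells, 1.03% in the oligodendrocyte lineage, 1.1% in microglia and 1.87% in fibroblast or mural cells. By stage it was 0.22% in proliferating, 0.393% in committing, 0.322% in migrating, 0.241% in maturing and 0.257% in mature cells. With sex as a block edgeR again called 0 members in each of them. At an unadjusted p under 0.05 that fit had 3 members in fibroblast or mural cells (3.45% of genes), 2 in the oligodendrocyte lineage (5.75%), 1 in endothelial cells (2.25%), 3 in proliferating (4.23%) and 1 each in committing (4.14%), migrating (3.84%) and maturing cells (2.55%), with SHANK2, SHANK3, FOXP1, ANK2 and RAI1 the genes concerned. SHANK2 had log2 fold changes of both signs among them, -1.69 (SE 0.51, adjusted p = 1.00 by edgeR) in endothelial and 1.14 (SE 0.33, adjusted p = 1.00) in fibroblast or mural cells. DESeq2, without the block, called 0 members in each class and stage. The median log2 fold change of the members was between -0.11 and -0.02 in all of them except microglia, where it was 0.12 over 31 members against 0.03 over all genes. Without the LPS male the members' median in microglia was -0.02. Within the female and male pairs it was -0.11 and 0.05 there. Over all genes the medians outside microglia lay between -0.01 and 0.01. Of 32 members tested in all 5 stages, 12 had a fold change of one sign in all of them, 10 below and 2 above 0, against 32.1% of the 9665 genes tested in all 5. These included EHMT1 (-0.31 to -0.18), SETD5 (-0.31 to -0.23), CHD2 (-0.27 to -0.17), RAI1 (-0.54 to -0.30) and ANK2 (0.22 to 0.39).

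In microglia, 2 members were called when the LPS female was left out, where 4.3% of 5904 genes were called. ANK2 stood at 156 and 132 CPM in the Control female and male, 135 CPM in the LPS female and 481 CPM in the LPS male, and MYT1L at 29.9, 73.3, 3.76 and 180.3 CPM, with log2 fold changes of 1.78 (SE 0.55, adjusted p = 0.0721 by edgeR) and 1.91 (SE 0.61, adjusted p = 0.0847) when the LPS male was set against both controls. The LPS arm of that fit was 1 library, assumed to vary like the 2 controls. Both are neuronal genes, and the 8 granule lineage markers, all detected, summed to 4765 CPM in microglia of the LPS male against 1095 to 2150 CPM in the other libraries. The estimated share of free RNA in microglia was 8.3% and 13.8% in the Control female and male, 0% in the LPS female and 12.4% in the LPS male. The fit held no term for sex. MYT1L was higher in males in 6 of 6 classes other than the granule lineage and ANK2 in 5, and these classes include microglia itself. In the granule stages MYT1L was higher in males in 5 of 5, while ANK2 was lower in 5 of 5, by log2 fold changes of -0.48 to -0.28. The cause of the 2 differences was not tested.

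Genes that work with the members were counted in the same fit. In the granule lineage, edgeR called 0 of the 21 BAF complex subunits, 0 of 5 other CHD remodellers, 0 of 11 COMPASS methyltransferase complex genes, 0 of 11 other histone lysine methyltransferases, 0 of 11 co-repressor and Mediator kinase module genes, 0 of 14 other autism risk genes of the synapse and membrane and 0 of 7 SHANK scaffold partners. None of the genes in these lists reached an unadjusted p of 0.05, and DESeq2 called 0 of them. Their median log2 fold changes lay between -0.21, for the other methyltransferases, and -0.01, for the co-repressor list. Like the members, most of these genes were below 0, against 48.6% of all genes, not matched for level. The counts were 16 of 21 BAF subunits, 5 of 5 CHD remodellers, 9 of 11 COMPASS genes and 9 of 11 other methyltransferases. In the co-repressor, synapse and membrane, and SHANK partner lists they were 7 of 11, 10 of 14 and 4 of 7. These signs were counted only in the fit of all 4 libraries, and the part of the stage makeup in them was not tested. Among the widest single values were 1.08 (SE 0.77) for SCN2A, a sodium channel that also served as a mature-stage marker, and 0.74 (SE 0.56) for DPF3, a BAF subunit, each with an adjusted p of 1.00 by edgeR.

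The partners were also counted by stage, with no test of any difference between the lists. Of 21 BAF subunits, 14 were higher in proliferating precursors than in mature granule cells in 4 of 4 libraries and 5 were lower. DPF3 and ACTL6B, known from the neuronal form of the complex, had mean log2 ratios of -1.93 and -0.79 and were among the 5, while 2 other subunits known from that form were not, SS18L1 with 0.76 and DPF1 with -0.59. The ATPases SMARCA4 and SMARCA2 had ratios of 0.71, higher in 4 of 4 libraries, and -1.13, higher in 0 of 4. Of the 11 COMPASS genes 8 were higher and 0 lower, and of the 11 other methyltransferases 8 were higher and 0 lower, led by EZH2 at a mean log2 ratio of 2.95. Of the 5 other CHD remodellers 3 were higher and 1 lower, of the 11 co-repressor and Mediator kinase genes 6 and 2, and of the 7 SHANK partners 1 and 2. Of the 14 synapse and membrane genes 2 were higher and 8 lower, with a median of -0.94. These lists were chosen with earlier results known, and all genes, not matched for level, stood at 36.6% and 17.5%.

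More members were called between the sexes of the libraries than between exposures. This comparison was added after the levels had been seen, and since depth, mitochondrial share and free RNA split the same way with 2 fetuses per sex, sex and these library properties cannot be told apart. In the granule lineage both male libraries were above both female libraries for 15 members and below for 9, against 68.4% of all genes split either way. In a fit with terms for group and sex, edgeR called 6 of 33 members (18.2%), and 24.5% of all genes were called, so the share among members was below that of all genes.

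SHANK2 had the largest difference among the 6 called members, with a log2 fold change of male over female of 1.27 (SE 0.22, adjusted p = 0.0588 by edgeR). RAI1 followed with 0.99 (SE 0.18, adjusted p = 0.0601), EHMT1 with 0.83 (SE 0.17, adjusted p = 0.0646) and CHD8 with 0.76 (SE 0.15, adjusted p = 0.0632). EHMT1 measured 337 and 318 CPM in the Control and LPS females against 709 and 536 CPM in the males, and CHD8 90.5 and 81.6 CPM against 162 and 146 CPM, without overlap. ASXL3 (247 and 263 CPM in females, 194 and 145 CPM in males) and CTNNB1 (178 and 193 CPM, 143 and 117 CPM) were lower in the males, by log2 fold changes of -0.68 (SE 0.17, adjusted p = 0.0823) and -0.60 (SE 0.15, adjusted p = 0.087). In the low-UMI barcodes SHANK2 stood at 54.0 and 39.8 CPM in the female libraries and 354 and 187 CPM in the males, and EHMT1 at 179 and 127 against 475 and 299 CPM. RAI1 (39.3 and 49.5 against 84.4 and 43.7 CPM) and CHD8 (106 and 86.1 against 102 and 94.3 CPM) overlapped there. ASXL3 (141 and 103 against 215 and 193 CPM) and CTNNB1 (118 and 92.5 against 170 and 131 CPM) were higher in those of the males, the opposite of the order in nuclei. With 3 libraries the terms for LPS and sex cannot be fitted together, so fits with a library left out held sex alone, with the lone library of a sex assumed to vary like the pair of the other. The same sex-only fit of all 4 libraries called 10 members (edgeR; 37.8% of all genes). It called 1 without the Control female (10.9%), 0 without the LPS female (6.4%) and 12 without either male library (42.6%).

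**Figure D5:**
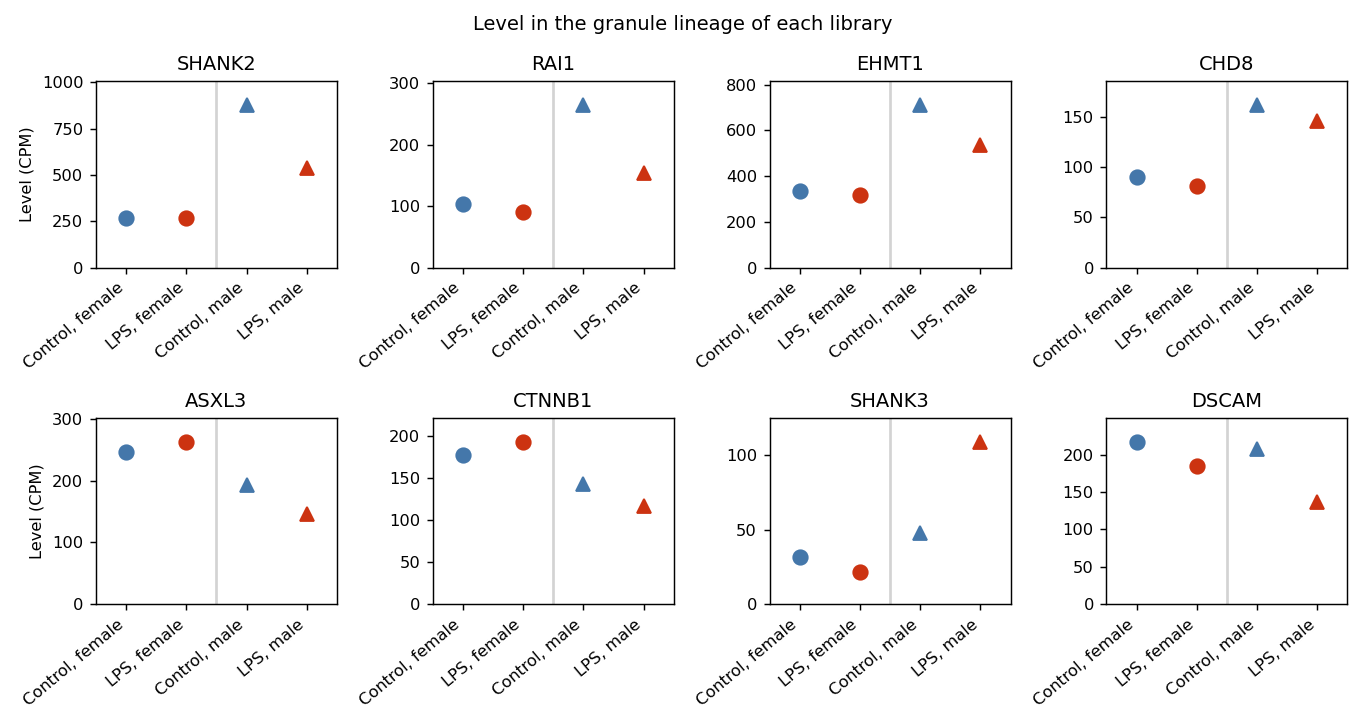
Level in CPM (vertical axis, from 0) of 8 genes in the granule lineage of each library, circles for female and triangles for male fetuses, blue for Control and red for LPS, with a grey line between the sexes. SHANK2, RAI1, EHMT1 and CHD8 are higher and ASXL3 and CTNNB1 lower in both male libraries, SHANK3 is high in the LPS male at 109 CPM, and DSCAM is lower in both LPS libraries, at 184 and 137 CPM.

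The 6 genes were followed into the other cell types and the stages of the same 4 libraries. The stages are parts of the granule lineage in which these genes were called, so they are not separate evidence. SHANK2, RAI1, EHMT1 and CHD8 were each higher in males in 6 of 6 other classes tested and in 5 of 5 granule stages. They were called in 3 of those classes and in 4 of those stages each. SHANK3, not among the 6, was higher in males in 4 of 4 other classes tested and called in 2. By stage SHANK3 was higher in males in 5 of 5 and called in 3. ASXL3 was higher in males in 2 of the 6 classes, by a log2 fold change of up to 1.90, and CTNNB1 in 1, by 0.30, while both were lower in males in 5 of 5 stages. Over all members, 12 of 30 had one sign in all 6 classes, against 42.6% of genes, and 25 of 32 in all 5 stages, against 66.5%. In inhibitory interneurons 13 of 32 members were called (background 34.0%), in astroglia 9 of 33 (24.4%), in the oligodendrocyte lineage 5 of 31 (19.6%), and in all nuclei 8 of 33 (28.4%). By stage 14 of 33 were called in proliferating precursors (35.3%), 10 of 33 in committing cells (28.1%), 10 of 32 in migrating cells (30.7%) and 7 of 33 in maturing cells (30.1%). In endothelial cells, fibroblast or mural cells, microglia and mature granule cells edgeR called 0 members, where 1.99%, 1.58%, 1.65% and 0.905% of all genes were called, and 4, 5, 6 and 5 members had an unadjusted p under 0.05, as had 15.9%, 11.8%, 18.9% and 21.4% of all genes. DESeq2 was run for this comparison only in the granule lineage, where it called 6 members and 19.0% of genes.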

How the data were processed

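Single-nucleus libraries were made by the submitters with the 10x Chromium 3' kit v3.1, and intronic reads were counted on Mmul_8.0.1. The protocol names Cell Ranger 5.0, the submitters' processing notes Cell Ranger 4. The deposited matrices held UMI counts per gene and barcode, before the free RNA correction and nucleus filters that the study applied. Barcodes past limits of 500 genes and 5% mitochondrial UMIs were clustered (Seurat 5.3.0, R 4.3.3; 2000 features without members, 30 dimensions, resolution 0.5) and named from marker lists. Doublets (Scrublet in scanpy 1.11.5) were marked in 5.41% to 6.41% of nuclei and kept, except that a cluster with over 50% of them stayed unnamed. In 2 libraries the automatic threshold marked 0%, and the median threshold of the others was used. Another low-UMI cluster led by ribosomal genes stayed unnamed. Counts were summed per class and fetus and tested with edgeR 4.0.16 (filterByExpr, TMM, quasi-likelihood; Benjamini-Hochberg over all genes tested; called at adjusted p under 0.1 and absolute log2 fold change over 0.25), in classes with at least 20 nuclei in each library. SE is the log2 fold change divided by the square root of F. DESeq2 1.42.0 was an alternative. In fits of LPS against Control without a term for sex, p-values measure the spread between fetuses, 2 per group, 1 female and 1 male. That spread takes in the difference between male and female libraries. In fits with terms for both group and sex, each combination had a single library. Their p-values and SEs rest on what these terms leave unexplained and on variation estimated over all genes. Free RNA came from low-UMI barcodes. Ratios of classes and stages used log2(CPM + 1). The 8 members with the smallest unadjusted p were given one by one, with by-class and by-stage extremes. Members and lists were chosen with earlier results of these data known, and the stage markers came in part from the study's tables on these libraries. The fits were also run on simulated counts with a single dispersion for all genes and no difference by sex. That run does not show how they perform on libraries that split by sex. The column of gene types and 2 members without a row were not used.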

Additional observations from a re-analysis of the deposited data

Results flagged for a closer look

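SHANK3 had differences of opposite sign in the sexes in the granule lineage. In log2(CPM + 1) the LPS female was lower than the Control female by a difference of -0.52, and the LPS male was higher than the Control male by a difference of 1.16. With 1 fetus for each combination of exposure and sex, the difference between the sexes was not tested. It was the only member of the 33 with opposite signs and a change of more than 0.25 in both pairs.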

How the results depend on the processing

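The count of 0 members called with LPS in the granule lineage did not change under DESeq2, RLE or library-total scaling, no filter on low counts, a replicate block by sex, removal of doublets, the study's number of nuclei, a minimum of 1000 genes, classes from marker scores, subtraction of free RNA or leaving out any library, and the members' median log2 fold change stayed negative, at -0.12 to -0.08 in the first 10 and -0.09 to -0.04 with a library left out. The labels carry no replicate numbers, so sex served as the block, and it changed no call of a member. In microglia leaving out a library gave 0 to 2 members called. Among the 8 members given one by one, leaving out 1 library moved the log2 fold change of RAI1 between -1.03 and 0.18, SETD5 between -0.52 and 0.07, SHANK2 between -1.05 and 0.52, CHD2 between -0.43 and 0.055, SHANK3 between -0.85 and 1.46, ANK2 between 0.087 and 0.59, DSCAM between -0.63 and -0.20 and TRIP12 between -0.30 and -0.056, with none called; a lone library was assumed to vary like the pair. RAI1, SETD5, SHANK2 and CHD2 turned positive without the Control male and SHANK3 turned negative without the LPS male. Those fits held no term for sex, so leaving out a library also left the sexes unbalanced between the groups. The counts of 18 and 8 members by stage and 31 by class moved by at most 1. Over all genes, DESeq2 called 5 in fibroblast or mural cells, 2 in maturing and 1 each in migrating and oligodendrocyte nuclei, where edgeR called 0. Under alternatives edgeR called up to 38 genes with no filter (fibroblast or mural), 31 with sex as a block (oligodendrocyte lineage), and with a library left out 254 in microglia (LPS female), 116 in fibroblast or mural (Control female) and at most 81 elsewhere, against 0 in the granule lineage and 0 members outside microglia. The count of 6 members between male and female libraries was 10 with no term for LPS (37.8% of all genes) and, in that same fit, 0 to 12 with a library left out (6.4% to 42.6%). The cause was not tested. Fewer than 20 Purkinje nuclei in the LPS male left no test there.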
